A study of Rattus norvegicus with 12 samples.

Results

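The 9 genes described here, Egr1, Fos, Junb, Ier3, Myc, Etv4, Etv5, Dusp6 and Fosl1, are known transcriptional targets of the ERK pathway. They were chosen by symbol in the annotation of a rat expression array, on which 14 probe sets carried 1 of these symbols alone. The array named 14218 genes in this way, and the 9 genes were among the 10510 whose mean reached a log2 signal of 5 in at least 1 cell type. The brightest probe set of a gene, by its mean over all arrays, was used, and the other 5 probe sets are given beside it.

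RNA was measured from 6 rat lines or cultures with 2 arrays each. The arrays labelled iPS held A1 and A2, lines of induced pluripotent stem cells of the FHH strain that the series title ties to a transposon system and that were kept on mitomycin-treated mouse feeder fibroblasts with LIF. DAC2 and DAC8, on the arrays labelled ES, are embryonic stem cell lines for which no strain is listed, and the arrays labelled EF held REF1 and REF2, FHH fibroblast cultures made from e14.5 embryos. The labels list 2i medium, which contains inhibitors of MEK and of GSK3, for the iPS and ES cells, which were taken 5 days after passage, and MEF medium for the fibroblasts, taken 6 days after passage. For the iPS lines they also list a medium with serum replacement and LIF, and whether A1 and A2 were in 2i medium, and so under MEK inhibition, when taken is not stated. Medium and day of collection changed together with the fibroblast label and cannot be told apart from it. Oct4, Nanog, Sox2 and SSEA-1 are each recorded as positive in the iPS and ES labels. The labels do not list the reprogramming genes, and whether the Myc probe set also reads a transgene was not tested. The series asked whether rat iPS cells resemble rat ES cells in gene expression.

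In the ERK pathway, growth factor receptors act through Ras, RAF and MEK to phosphorylate the kinases ERK1 and ERK2. Active ERK phosphorylates ternary complex factors, which with serum response factor switch on immediate early genes within minutes and without new protein synthesis. Delayed targets follow once the first transcription factors have been made, and several of them feed back on the pathway. In mouse ES cells FGF signalling through ERK promotes exit from the naive state, and blocking MEK, together with GSK3, holds the cells there. Egr1, Fos, Junb, Ier3 and Myc were treated as the 5 immediate early targets, and Etv4, Etv5, Dusp6 and Fosl1 as the 4 delayed ones.

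A check of the labels against marker genes bore on every comparison of cell types. At a log2 signal of at least 5, all 9 fibroblast markers were present in DAC8 and REF1, against 2 in A1, 2 in A2, 1 in DAC2 and 0 in REF2. All 7 measured markers of naive pluripotency were present in DAC2 and REF2, against 3 in each of A1, A2, DAC8 and REF1, and all 5 epithelial markers were present in DAC2 and REF2 and in no other line. All 9 neural markers reached that level in A1 and A2, against 3 in DAC2, 6 in DAC8, 6 in REF1 and 4 in REF2. Across all probe sets the arrays labelled DAC8 correlated with REF1 (mean r = 0.988), and those labelled DAC2 with REF2 (r = 0.974), whereas the ES lines correlated with each other at 0.614 and the fibroblast cultures at 0.612. The libraries labelled DAC8 and REF2 thus went against their labels, and comparisons of cell types are given with and without them. The libraries labelled iPS also lacked most of the naive and epithelial markers. Esrrb, Tfcp2l1, Klf2 and Tbx3, factors of the naive state, were at 3.64 to 4.89 in A1 and A2, as against 8.91 to 12.13 in DAC2, and the adhesion genes Epcam and Cdh1 were at 3.43 to 4.10 in A1 and A2, as against 11.84 and 11.19 in DAC2. The naive markers above 5 were Sox2 at 9.43 in A1 and 9.31 in A2, Klf4 at 6.85 and 6.15, and Lin28a at 5.34 and 5.85. In DAC2 these were at 11.48, 10.01 and 9.67. A1 and A2 are the only lines with this label, so no comparison could be made without both, and iPS, ES and fibroblast stand for the labels in what follows. Array medians lay between 5.28 and 5.41. Actb, read at both ends as a sign of RNA quality, was brighter at the 3' than at the 5' end by 0.84 to 0.88 in A1, A2 and DAC2, 0.42 to 0.52 in DAC8 and REF1 and 0.94 to 1.05 in REF2.

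The ERK targets did not split along the line between immediate early and delayed genes. Egr1 and Fos were lowest in DAC2. Junb, Ier3, Dusp6 and Fosl1 were highest in DAC8 and REF1, and Myc was high in DAC8, REF1 and REF2. Etv4 and Etv5 were highest in DAC2 and REF2 and near the lower end of the signal range in A1 and A2. In limma with the 6 lines as factor, a difference was called when its adjusted p was under 0.05 (Benjamini-Hochberg over the 10510 genes) and it was at least 2-fold, a log2 difference of 1. Of the 135 comparisons of a member between a pair of lines, 96 were called, or 71.1%, against 27.6% over all genes and pairs tested. The 2 arrays of a line may be technical repeats, so that these p-values measure only the spread between such arrays.

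**Figure D1:**
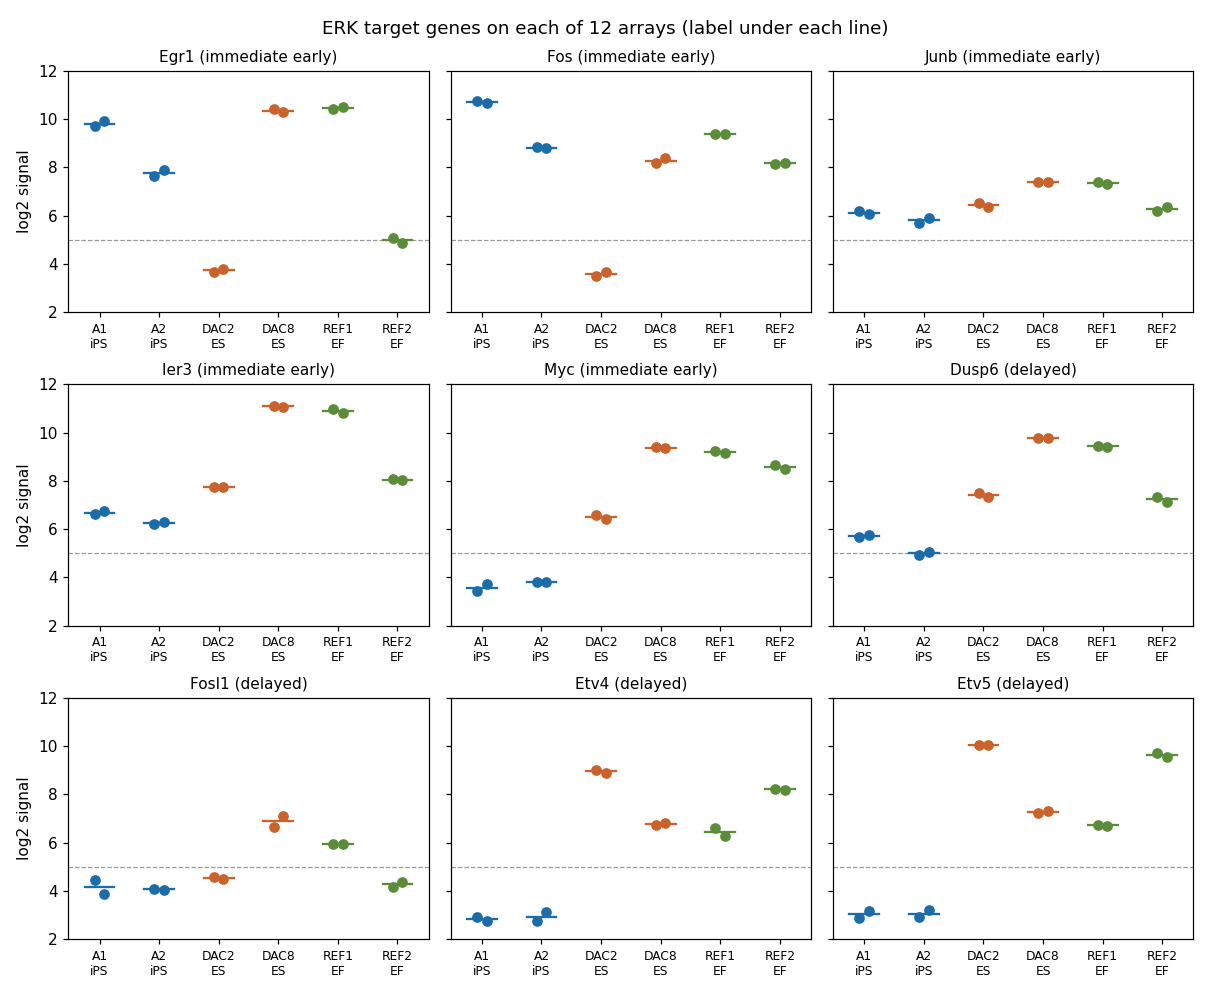
Log2 signal of the 9 ERK target genes (vertical axis, same scale in each panel) on the 12 arrays, grouped by line along the horizontal axis, with the cell type label below each line. Points are single arrays, short bars are the means of the 2 arrays of a line, and the dashed line marks the filter level of 5; Etv4 and Etv5 lie near 3 in both iPS lines, while Egr1 and Fos are lowest in DAC2.

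Egr1 encodes a zinc finger transcription factor made within minutes of ERK activation. Its log2 signals were 9.69 and 9.93 in A1, 7.64 and 7.87 in A2, 3.65 and 3.80 in DAC2, 10.40 and 10.28 in DAC8, 10.42 and 10.50 in REF1, and 5.09 and 4.86 in REF2. The order was REF1, DAC8, A1, A2, REF2 and DAC2. The first 3 did not differ by 2-fold between neighbours, and each later step was called, from A1 over A2 (2.06) to A2 over REF2 (2.78) and REF2 over DAC2 (1.25). The range of its line means, 6.74, exceeded the range of 98.5% of the genes tested, whose median range was 1.28.

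The promoters of Egr1, Etv5 and Dusp6, 1 gene from each of the groups described here, are shown because these genes had large ranges between lines and unlike orders of lines. The sequences are those of RefSeq on the build GRCr8, 250 bases before to 50 bases after the start that the table uses, and 5 of the 9 members were matched there. Searched on both strands were the CArG box, the binding motif of serum response factor, CGTCA, the core of the CREB site, TGANTCA, the AP-1 site, and CCGGAA, an ETS core. Capitals mark every match. Egr1 lies at chr18:26736828-26737127, Etv5 at chr11:92113013-92113312 and Dusp6 at chr7:35979354-35979653, all on the + strand.
Egr1: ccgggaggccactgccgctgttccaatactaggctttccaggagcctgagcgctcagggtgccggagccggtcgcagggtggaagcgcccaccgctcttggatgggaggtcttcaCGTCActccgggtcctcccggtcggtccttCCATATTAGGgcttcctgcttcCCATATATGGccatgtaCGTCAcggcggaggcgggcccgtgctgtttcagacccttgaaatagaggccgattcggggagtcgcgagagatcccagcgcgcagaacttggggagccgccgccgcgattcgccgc
Etv5: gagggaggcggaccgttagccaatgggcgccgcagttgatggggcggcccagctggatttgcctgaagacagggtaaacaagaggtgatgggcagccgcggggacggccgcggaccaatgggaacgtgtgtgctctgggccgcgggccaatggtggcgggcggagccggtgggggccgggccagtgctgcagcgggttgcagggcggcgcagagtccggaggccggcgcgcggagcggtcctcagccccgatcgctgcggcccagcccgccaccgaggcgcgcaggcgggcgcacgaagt
Dusp6: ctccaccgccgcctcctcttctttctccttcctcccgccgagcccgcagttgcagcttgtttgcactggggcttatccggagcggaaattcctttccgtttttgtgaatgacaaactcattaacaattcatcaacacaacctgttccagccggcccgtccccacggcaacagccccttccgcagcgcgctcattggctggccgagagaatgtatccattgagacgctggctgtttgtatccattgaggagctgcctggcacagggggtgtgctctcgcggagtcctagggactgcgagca
The Egr1 window held 2 CArG boxes, at 105 to 96 and 83 to 74 bases before the start, and 2 CGTCA matches, at 135 to 131 and 66 to 62 bases before it. Of 27457 promoters of this length, 1.64% held a CArG box and 0.0255% (7 promoters) held 2 or more. The Etv5 and Dusp6 windows held none of the 4 motifs. Junb had 1 CGTCA match and Fosl1 had 2, a motif found in 22.0% of promoters, and neither held the other 3. TGANTCA was present in 7.33% and CCGGAA in 15.8% of promoters. No matches overlapped.

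Fos encodes a subunit of the AP-1 transcription factor. It gave 10.73 and 10.68 in A1, 8.82 and 8.79 in A2, 3.50 and 3.64 in DAC2, 8.17 and 8.38 in DAC8, 9.36 and 9.36 in REF1, and 8.14 and 8.20 in REF2. DAC2 stood alone at the low end, 4.60 below REF2, and A1 alone at the high end, 1.34 above REF1. REF1, A2, DAC8 and REF2 followed each other in steps of under 2-fold. A further probe set of Fos stayed between 4.44 and 5.16 on all arrays, and its line means correlated at r = -0.88 with those of the brighter one (6 lines), so the account of Fos rests on 1 probe set.

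Junb, an AP-1 partner of the Fos proteins, varied least. Its signals were 6.18 and 6.06 in A1, 5.69 and 5.91 in A2, 6.50 and 6.37 in DAC2, 7.38 and 7.37 in DAC8, 7.38 and 7.30 in REF1, and 6.21 and 6.33 in REF2. DAC8 and REF1 were the highest, and no step between neighbours in the order reached 2-fold, although 6 of the 15 pairs of lines were called. Its range of 1.57 exceeded that of 60.6% of genes.

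Ier3, an early response gene that regulates cell survival, had the same high lines with a larger range of 4.85. It gave 6.62 and 6.74 in A1, 6.19 and 6.30 in A2, 7.76 and 7.73 in DAC2, 11.11 and 11.07 in DAC8, 10.98 and 10.81 in REF1, and 8.06 and 8.03 in REF2. The lines formed 3 levels, with DAC8 and REF1 above REF2 and DAC2, and these above A1 and A2. The steps between levels were 2.85 and 1.07 and were called, and the steps within levels were not.

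Myc encodes a transcription factor of cell growth and was one of the first reprogramming factors used in mouse. It gave 3.42 and 3.72 in A1, 3.80 and 3.81 in A2, 6.60 and 6.43 in DAC2, 9.38 and 9.36 in DAC8, 9.22 and 9.16 in REF1, and 8.64 and 8.47 in REF2. Both iPS lines lay below the filter level of 5, and DAC2 lay between them and the other 3 lines. REF2 was called over DAC2 by 2.04 and DAC2 over A2 by 2.71, and DAC8, REF1 and REF2 lay within 2-fold of the next in order.

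Dusp6 encodes a phosphatase that removes phosphate from ERK in the cytoplasm and is a standard readout of its activity. Its signals were 5.68 and 5.75 in A1, 4.94 and 5.07 in A2, 7.50 and 7.34 in DAC2, 9.77 and 9.78 in DAC8, 9.45 and 9.40 in REF1, and 7.32 and 7.13 in REF2. The lines took the 3 levels seen for Ier3, with called steps of 2.01 from REF1 to DAC2 and 1.51 from REF2 to A1. The other probe sets of Dusp6 followed it closely over the 6 lines (r = 1.00 and 0.99), with ranges of 5.20 and 2.79 beside 4.77.

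Fosl1 encodes Fra-1, an AP-1 subunit that is itself induced by AP-1. It gave 4.45 and 3.87 in A1, 4.09 and 4.03 in A2, 4.55 and 4.47 in DAC2, 6.64 and 7.11 in DAC8, 5.95 and 5.92 in REF1, and 4.15 and 4.38 in REF2. It passed the level of 5 in DAC8 and REF1 alone, which did not differ by 2-fold (0.94). The step from REF1 to DAC2, 1.43, was called, and the 4 lower lines could not be ordered.

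Etv4 and Etv5 encode ETS transcription factors of the PEA3 group, known targets of FGF signalling. Etv4 gave 2.91 and 2.76 in A1, 2.74 and 3.10 in A2, 8.99 and 8.90 in DAC2, 6.71 and 6.82 in DAC8, 6.60 and 6.28 in REF1, and 8.22 and 8.19 in REF2. Etv5 gave 2.89 and 3.15 in A1, 2.91 and 3.19 in A2, 10.06 and 10.03 in DAC2, 7.21 and 7.30 in DAC8, 6.71 and 6.71 in REF1, and 9.70 and 9.56 in REF2. The genes had the same order of lines, DAC2, REF2, DAC8, REF1, A2 and A1. Steps from REF2 to DAC8 were called (1.44 for Etv4 and 2.37 for Etv5), as were those from REF1 to A2 (3.51 and 3.66), and the steps within each of the 3 levels were not. The second probe set of Etv4 had a range of 4.38 (r = 0.95 with the first) and that of Etv5 a range of 1.41 (r = 0.92).

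By the correlation of their line means, the 9 genes could be set loosely in 3 groups, with Myc between 2 of them. Over the 6 line means, Egr1 and Fos correlated at r = 0.77, and Etv4 and Etv5 at r = 1.00. Junb, Ier3, Dusp6 and Fosl1, which are 2 immediate early and 2 delayed targets, correlated with each other at 0.91 to 0.99, and Myc with them at 0.75 to 0.92. Myc also correlated with Etv4 at 0.74 and with Etv5 at 0.70. Fos correlated with Etv4 and Etv5 at -0.73 each and Egr1 at -0.57 and -0.62. Dusp6 correlated with Etv4 at 0.61, with Etv5 at 0.54 and with Egr1 at 0.31, although all but Egr1 are classed as delayed. The order of line means was the same for Etv4 and Etv5 and for Junb, Dusp6 and Fosl1, and differed between Egr1 and Fos. These orders include steps that were not called, among them every step of Junb, so they are not resolved throughout. These are descriptions over 6 lines, and 2 pairs of these lines are near copies of each other in overall profile.

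**Figure D2:**
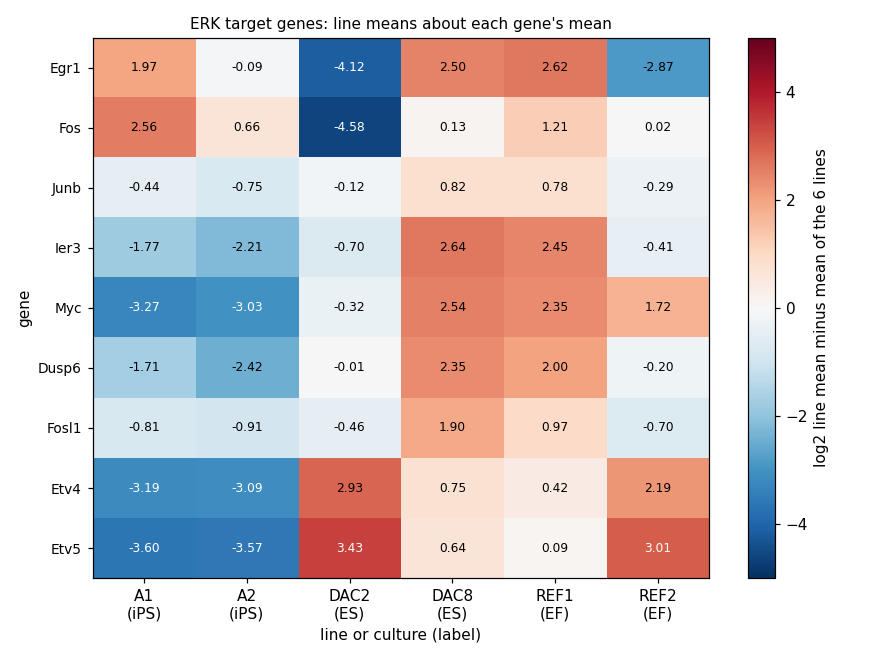
Line means of the 9 genes (rows) in the 6 lines (columns), each as the log2 difference from the mean of that gene over the 6 lines, with the value printed in the cell. Red is above and blue below the gene's mean; Egr1 and Fos reach -4.12 and -4.58 in DAC2, where Etv4 and Etv5 reach 2.93 and 3.43.

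In line A1, Etv4 and Etv5 were low while Egr1 and Fos were high, and in line A2 only the first pair stood well away from its mean. The centred mean of Etv4 and Etv5 was -3.42 and -3.36 on the A1 arrays and -3.49 and -3.17 on the A2 arrays, and that of Egr1 and Fos was 2.22 and 2.31 in A1 and 0.23 and 0.33 in A2. By line mean, Egr1 was at -0.09 and Fos at 0.66 in A2. DAC2 had the opposite arrangement, with Etv4 and Etv5 at 3.21 and 3.15 and Egr1 and Fos at -4.42 and -4.28. REF2, labelled EF, lay on the same side as DAC2, with Etv4 and Etv5 at 2.64 and 2.56 and Egr1 and Fos at -1.38 and -1.47. DAC8 and REF1 were above the mean for both pairs of genes.

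**Figure D3:**
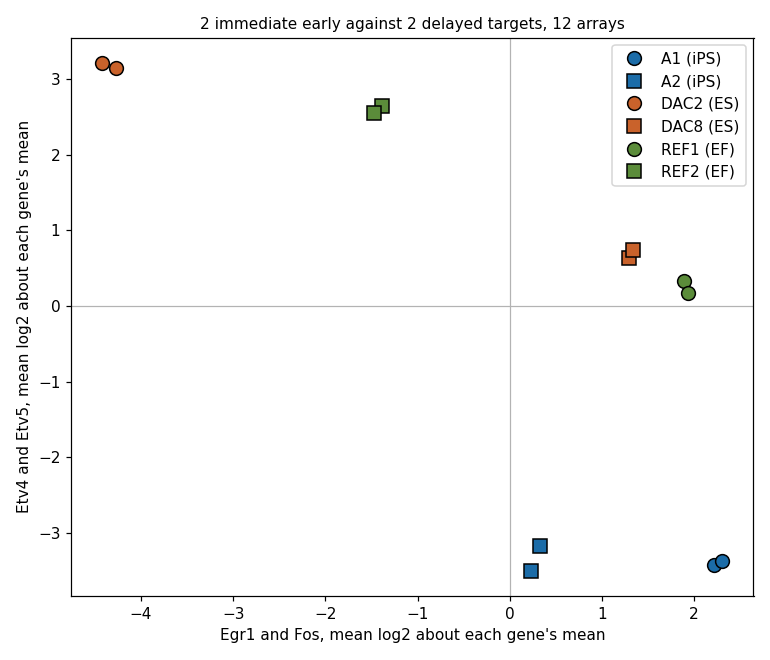
Mean log2 signal of Egr1 and Fos (horizontal axis) against that of Etv4 and Etv5 (vertical axis) on the 12 arrays, each gene set about its own mean over the 6 lines. Colours give the cell type label and marker shapes the line; the A1 arrays lie at the lower right, those of A2 low and near the middle, and the arrays of DAC2 at the upper left, with those of REF2 between DAC2 and the centre.

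With the arrays grouped as labelled, 4 of the 9 targets fell in iPS against ES lines and none rose. In this fit all 12 arrays entered, with cell type as factor and line as a random block (limma). On simulated data with line differences as large as those measured, this fit made more false calls than its adjusted p allows. Of its 267 calls for iPS against ES lines there, 55.8% were false, and it recovered 118 of 200 changed genes. With the arrays of a line averaged first, 8.22% of 73 calls were false and 67 changed genes were recovered. The p-values between cell types are therefore too small. Myc averaged 3.69 in iPS and 7.94 in ES lines (difference -4.25 ± 0.78, SE, adjusted p = 0.00852 in limma). Etv4 averaged 2.88 in iPS and 7.85 in ES lines (-4.98 ± 0.86, adjusted p = 0.00604 in limma), and Etv5 3.03 in iPS and 8.65 in ES lines (-5.62 ± 0.99, adjusted p = 0.0068 in limma). Dusp6 averaged 5.36 in iPS and 8.60 in ES lines (-3.24 ± 0.79, adjusted p = 0.0380 in limma). Each of these 4 differences rests on 2 lines a label. The second probe set of Etv5 differed by -0.78 ± 0.60 (adjusted p = 0.605 in limma over all probe sets), that of Etv4 by -3.08 (0.0898), and the further ones of Dusp6 by -3.56 (0.0562) and -1.93 (0.0583), none of them called. With the mean of its probe sets Etv5 differed by -3.20 (adjusted p = 0.0244 in limma) and kept its call. Over all genes 4.84% were called, 1.75% as lower and 3.09% as higher in iPS lines. The median difference was -2.96 over the 9 genes and 0.05 over all genes. Fos averaged higher in iPS than in ES lines and did not pass (3.83 ± 1.15, adjusted p = 0.0920 in limma). Egr1, whose arrays overlapped, differed by 1.75 ± 1.92. Junb, Ier3 and Fosl1 averaged lower in iPS than in ES lines without passing, with differences of -0.95, -2.96 and -1.58.

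By class, 1 of the 5 immediate early targets (Myc) and 3 of the 4 delayed targets (Etv4, Etv5 and Dusp6) were called lower in iPS than in ES lines, with median differences of -0.95 and -4.11. The 2 arrays of a line were close to copies of each other in this fit (consensus correlation 0.966), so that each cell type rests on 2 lines. When the arrays of a line were averaged first, 0 of the 9 genes were called, with the adjusted p of Myc at 0.161, of Etv4 at 0.109, of Etv5 at 0.171 and of Dusp6 at 0.305 (limma). Leaving out line A1, or line A2, also left 0 of the 9. Few genes were called under these settings, 259 of all 10510 with line means, 74 without A1 and 60 without A2. Neural markers moved with this contrast, 8 of 9 being called higher in iPS lines, and their median was 10.68 in A1 and 10.64 in A2, against 4.58 in DAC2 and 6.75 in DAC8. Of the 7 naive markers 2 were called lower in iPS lines, Klf2 and Klf4, and none of the 5 epithelial or 9 fibroblast markers was called. The part of these markers in the result was not tested.

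Against the arrays labelled EF, 3 of the 9 targets fell in iPS lines, where 5.34% of all genes were called and 2.1% as lower. Myc averaged 3.69 in iPS lines and 8.87 in fibroblast cultures (-5.19 ± 0.78, adjusted p = 0.00271 in limma). Etv4 averaged 2.88 in iPS lines and 7.32 in fibroblast cultures (-4.44 ± 0.86, adjusted p = 0.0111 in limma), and Etv5 3.03 in iPS lines and 8.17 in fibroblast cultures (-5.14 ± 0.99, adjusted p = 0.0112 in limma). Dusp6 differed by -2.97 ± 0.79 (adjusted p = 0.0532 in limma) and Ier3 by -3.01 ± 0.98 (adjusted p = 0.119 in limma). Both comparisons share the iPS arrays, and 8 of 9 neural markers were called higher in iPS lines here too. The second probe set of Etv5 differed by -0.81 and was not called, and with the mean of its probe sets Etv5 differed by -2.97. With line means, or without line A1 or A2, 0 of the 9 targets were called here as well. Of all 10510 genes, 292, 75 and 77 were called under these settings. Etv4 and Etv5 lost their calls without line REF2 too. Without a line block 5 targets were called, with Ier3 and Dusp6 added.

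Between the arrays labelled ES and EF, 0 of the 9 targets and 0% of all genes were called by limma with the line block. At an unadjusted p under 0.05 there were 21 genes, of which 1 was a member, Fos, which averaged 5.92 in ES lines and 8.77 in fibroblast cultures (-2.84 ± 1.15). With line means 0 genes and without the line block 2 genes were called, none of them a member. Arrays of the cell types overlapped for each of the 9 genes. Each label held a line with the naive markers and a line with the fibroblast markers. The share of all genes that overlapped is not given, so the overlap is no result about the targets.

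Once DAC8 and REF2 were left out, the ES and EF labels stood for 1 line each, DAC2 and REF1, and many more genes were called. In iPS lines against DAC2, 7 of the 9 targets were called, where 29.9% of all genes were, 16.9% as higher and 13% as lower in iPS lines. Egr1 and Fos rose, by 5.06 ± 0.65 and 6.19 ± 0.59 (adjusted p = 1.28e-04 and 2.20e-05 in limma). Ier3 fell by 1.29, Myc by 2.83, Dusp6 by 2.06, Etv4 by 6.07 and Etv5 by 7.01. Junb (-0.48) and Fosl1 (-0.40) differed by less than 2-fold. All 9 neural markers were called higher in iPS lines than in DAC2, and all 7 naive and all 5 epithelial markers lower, and their part was not tested. Against REF1, 8 of the 9 fell in iPS lines, where 32.6% of all genes were called and 15.7% as lower. The differences were -1.68 for Egr1, -4.44 for Ier3, -5.50 for Myc and -4.07 for Dusp6. Fos differed by 0.39 ± 0.59 and was not called. All 9 neural markers were called higher and all 9 fibroblast markers lower in iPS lines than in REF1. With this choice of arrays the consensus correlation between the arrays of a line was -0.10, so these p-values treat the arrays of A1 and A2 as separate samples.

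DAC2 against REF1 was the comparison of ES cells in 2i medium with fibroblasts in which both lines matched the markers of their label. Here 8 of the 9 targets were called, where 40.3% of all genes were, 20% as higher and 20.3% as lower in DAC2. Of the immediate early genes, 4 of 5 fell, with differences of -6.74 ± 0.75 for Egr1, -5.79 ± 0.69 for Fos, -3.15 ± 0.17 for Ier3 and -2.67 ± 0.13 for Myc. Junb, at -0.90, was below the 2-fold minimum. The SEs in this comparison come from the cell type fit without DAC8 and REF2. DAC2 and REF1 alone stood for their labels there, so the SEs hold no spread between ES lines or between fibroblast cultures. The delayed genes went both ways. Etv4 rose by 2.51 ± 0.13 and Etv5 by 3.34 ± 0.10, whereas Dusp6 fell by 2.01 ± 0.27 and Fosl1 by 1.43 ± 0.15. Fibroblast markers moved with this contrast (9 of 9 called lower in DAC2, and 5 of 5 epithelial markers higher), and their part in the result was not tested. In bulk RNA, fewer cells of a type and less RNA per cell cannot be told apart.

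Within the iPS lines, A1 and A2 differed in 22 of the 10510 genes (0.209%), and Egr1 and Fos were 2 of these. Egr1 was 4.16-fold higher in A1 (2.06 ± 0.12, adjusted p = 3.35e-05 in limma) and Fos 3.73-fold higher (1.90 ± 0.08, adjusted p = 4.94e-06 in limma). All 14 genes called higher in A1 made up 0.133% of the genes tested. With the mean of its probe sets the difference of Fos was 0.84 and was not called. Dusp6 was 0.71 (adjusted p = 0.00337 in limma) and Ier3 0.43 higher in A1, below the 2-fold minimum, and the other 5 members differed by at most 0.32. Of the 24 other ERK and serum response targets tested, Egr2 (1.42), Ccnd1 (1.56) and Ccn1 (1.51) were called higher in A1 and none lower, while Jun, at 9.05 in A1 and 8.92 in A2, was not. The heat shock gene Hspa1a, singled out after its values were seen, was higher in A1 as well (8.09 against 5.44 in A2). Hsph1, Dnajb1 and Hspb1 were not called, and the part of a stress response in the result was not tested. None of the fibroblast, naive pluripotent, epithelial or neural markers was called between A1 and A2.

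DAC2 and REF2, which both carried the markers of naive pluripotency, differed in 3.9% of all genes and 2.88% as lower in DAC2. Of the 9 targets, 3 were called, all immediate early and all lower in DAC2. Fos was lower by 4.60 ± 0.08 (adjusted p = 1.40e-09 in limma), the third largest such difference among the genes tested. Myc was lower by 2.04 ± 0.10 and Egr1 by 1.25 ± 0.12, with Egr1 near or below the filter level in both. The 4 delayed targets differed by 0.19 to 0.74, and none was called. Among the other ERK targets, Dusp1 (-1.54) and Spry1 (-1.06) were lower and Dusp5 (1.16) was higher in DAC2. Medium and day of collection differ between these labels, and their part was not tested.

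DAC8 and REF1, which both carried the fibroblast markers, differed in 1.24% of all genes. Fos alone of the 9 targets was called, lower in DAC8 by 1.09 ± 0.08 (adjusted p = 3.62e-05 in limma). Without the first array of DAC8 that difference was -0.98, and with the mean of the probe sets of Fos -0.58, both under the 2-fold minimum. Egr1 differed by -0.12, and the largest difference among the delayed targets was 0.94 for Fosl1.

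**Figure D4:**
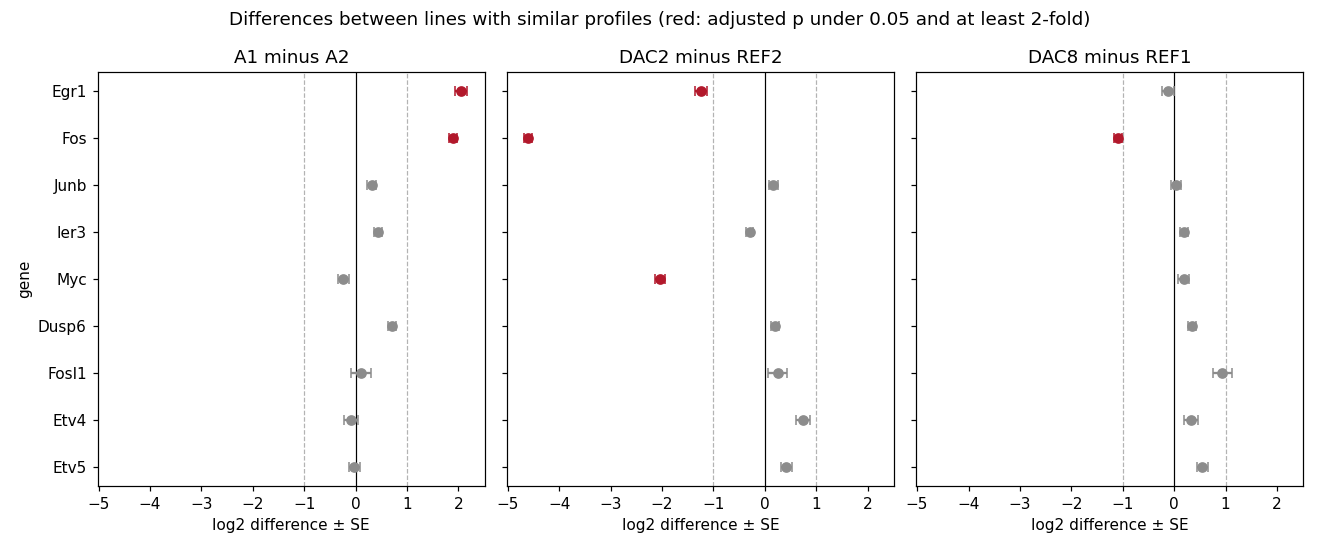
Log2 difference with its standard error (horizontal axis) of the 9 genes (rows) for the 3 pairs of lines with similar profiles, A1 minus A2, DAC2 minus REF2 and DAC8 minus REF1. Red points were called at an adjusted p under 0.05 and at least 2-fold, and dashed lines mark 2-fold; Fos was called in all 3 pairs and none of the delayed targets in any.

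A wider list of 32 ERK and serum response targets, of which 30 were on the array and 24 were tested, was set beside the 9 genes. In iPS against ES lines 3 of the 24 (12.5%) fell, beside 1.75% of all genes, and none rose, with Etv1 lower by 2.15 ± 0.34 (adjusted p = 0.00378 in limma), Hbegf, an EGF family ligand, by 4.50 ± 1.05 (0.0311), and Maff by 2.97 ± 0.74 (0.0420). The same 3 genes were called in iPS lines against fibroblast cultures, and with line means 0 of the 24 were called in either comparison. The median difference of the 24 genes from ES lines was -0.63. Between lines, 164 of 360 comparisons of these genes were called, or 45.6%, beside 27.6% over all genes and pairs. The wider list too was chosen with earlier results of these data known, so its shares are no test.

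Several genes of that list had line means that correlated with those of one of the 9, though at other levels. Ptgs2, a serum-induced cyclooxygenase, had line means of 6.56 in A1, 6.53 in A2, 2.42 in DAC2, 10.42 in DAC8, 9.79 in REF1 and 2.76 in REF2 (r = 0.94 with Egr1). Jun, the AP-1 partner of Fos, had 9.05, 8.92, 4.93, 9.01, 8.95 and 5.88 in the same lines (r = 0.95 with Egr1). Both were lowest in DAC2 and next lowest in REF2. The matricellular gene Ccn1 had 7.39, 5.88, 6.80, 12.24, 12.12 and 6.47, and the phosphatase gene Dusp1 8.52, 8.25, 6.30, 12.46, 11.92 and 7.85. These were highest in DAC8 and REF1. Dusp1 correlated with Egr1 at 0.84 and with Dusp6 at 0.72. Hbegf, at 3.41, 3.14, 6.07, 9.48, 8.49 and 6.29, correlated with Dusp6 at 0.99. Spry2, an inhibitor of receptor signalling, had 7.59, 7.38, 10.11, 8.89, 8.19 and 10.14 (r = 0.97 with Etv5), and Etv1 and Dusp5 also followed Etv5 (r = 0.97 and 0.96). Among these genes DAC2 was low for Ptgs2, Jun and Dusp1 and high for Spry2. The list was not uniform, as Atf3 (6.74) and Ier2 (9.25) were highest and Spry1 (3.91) was lowest in DAC2. Atf3 was almost as high in REF2 (6.70). Some genes followed none of Egr1, Dusp6 and Etv5 closely, such as Egr3, which correlated with them at -0.32, 0.03 and 0.26. Ier2 correlated with them at -0.28, 0.09 and 0.33. Egr3 and Ier2 were each called in 0 of the 15 pairs of lines, so their correlations rest on small differences.

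**Figure D5:**
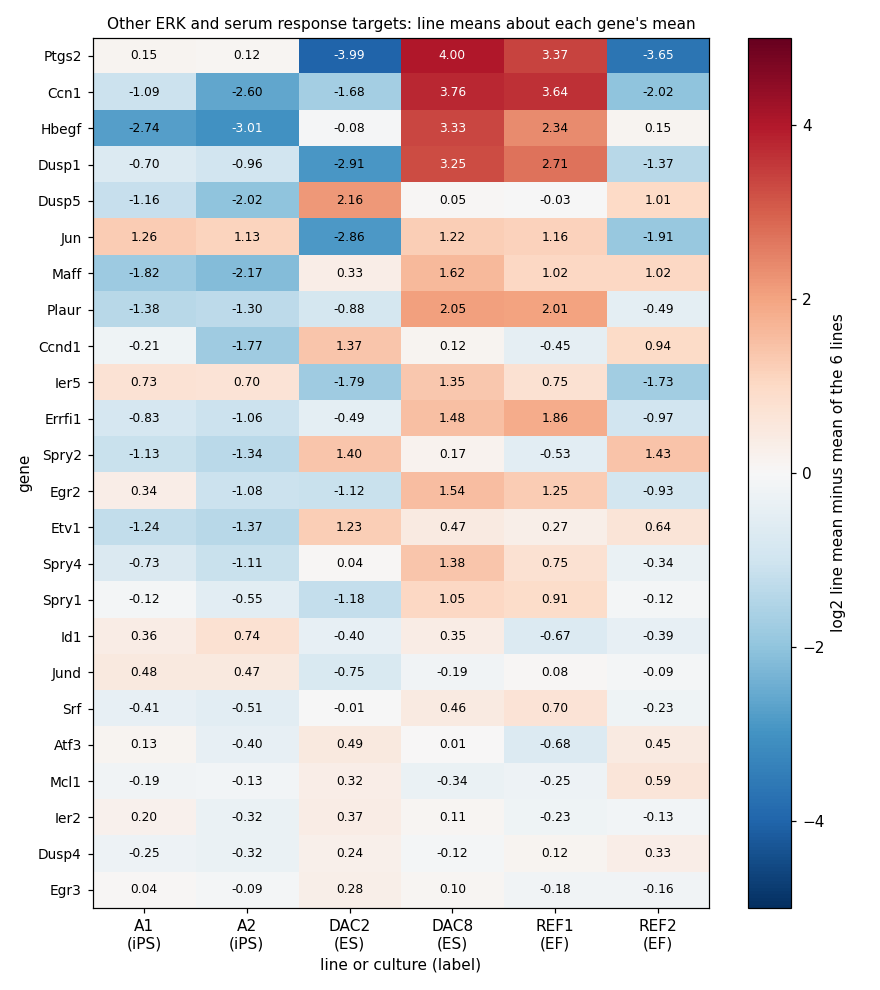
Line means of the 24 other ERK and serum response targets tested (rows, ordered by their range) in the 6 lines (columns), each as the log2 difference from the gene's mean over the lines, with the value printed in the cell. Ptgs2 and Jun are lowest in DAC2 and REF2, Hbegf and Maff in A1 and A2, and Spry2 and Dusp5 are highest in DAC2 or REF2.

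Among receptors and ligands the largest range of line means was 7.37 (Igf2). Among the genes of the Ras, RAF, MEK and ERK core it was 2.86 (Shc1). Of 14 tested receptors and ligands, Igf1r and Pdgfa fell in iPS against ES lines (-3.92 ± 0.61 and -2.05 ± 0.34, adjusted p = 0.0035 and 0.00499 in limma), and both fell against fibroblast cultures. With line means Pdgfa alone kept its calls. Igf2 had line means of 5.24 in A1, 5.27 in A2, 5.97 in DAC2, 11.15 in DAC8, 12.61 in REF1 and 6.01 in REF2. Egfr was at 3.39, 3.60, 2.70, 7.19, 8.30 and 2.83 in these lines. Both were above 7 in DAC8 and REF1 and below 7 elsewhere. Pdgfra was at 9.50, 9.36, 4.36, 9.15, 9.34 and 6.36, and Fgfr2 at 7.68, 8.29, 4.03, 8.90, 8.81 and 4.14. Both receptor genes were lowest in DAC2 and REF2, where Etv4 and Etv5 were high. Not all receptor genes had this order. Fgfr1 was highest in DAC2 and REF2, at 8.60 and 8.99, against 7.70 to 8.25 in the other lines. Fgfr3 was lowest in A1 and A2, at 5.80 and 6.53.

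The Ras, RAF, MEK and ERK core had 16 tested genes, Rps6ka2 and Rps6ka3 included. Of these, the adaptor Shc1 fell in iPS against ES lines (-2.38 ± 0.34, adjusted p = 0.00213 in limma). The Ras exchange factor Sos2 rose (1.70 ± 0.38, adjusted p = 0.0242 in limma). Both were called in the same direction against fibroblast cultures, and with line means Shc1 alone kept its calls. Gab1, an adaptor, was at 7.95 in A1, 7.95 in A2, 10.22 in DAC2, 8.61 in DAC8, 8.74 in REF1 and 9.98 in REF2, and the RAF kinase Araf had a range of 1.87. None of 6 ternary complex and ETS factors was called between iPS and ES lines. Elk3, a ternary complex factor, was at 4.70, 5.26, 2.65, 10.42, 10.65 and 3.10 in the same lines, Ets1 had a range of 2.17, Mrtfa of 2.02 and Ets2 of 1.56.

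LIF acts through STAT3 in parallel to ERK. Of its 7 tested genes, the shared receptor chain Il6st fell in iPS against ES lines (-1.42 ± 0.30, adjusted p = 0.0178 in limma), a call lost with line means (adjusted p = 0.0597 in limma). The receptors and ligands, the genes of the Ras, RAF, MEK and ERK core and the LIF genes had 12.5% to 14.3% of their tested genes called. Over all genes 4.84% were. These shares rest on few genes, Igf1r and Pdgfa, Shc1 and Sos2, and Il6st, of which Pdgfa and Shc1 alone kept their calls with line means. The lists of ternary complex and ETS factors and of the Myc family had no call. Gbx2 was at 4.11 in A1, 3.99 in A2, 9.30 in DAC2, 3.09 in DAC8, 3.29 in REF1 and 9.47 in REF2, and Tfcp2l1 at 4.28, 4.30, 9.84, 4.26, 3.91 and 9.94. Lifr was at 5.38, 5.07, 7.89, 4.94, 5.24 and 7.45, and Socs3, a direct STAT3 target, at 6.56, 6.61, 7.05, 4.75, 5.23 and 7.22. Each of these 4 genes was highest in DAC2 and REF2.

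None of the 7 genes of the Myc family and its partners was called between iPS and ES lines. Mycn was at 7.69 in A1, 7.66 in A2, 8.87 in DAC2, 6.67 in DAC8, 5.74 in REF1 and 8.68 in REF2, an order unlike that of Myc. Mycl was at 6.71, 6.45, 5.51, 5.22, 5.01 and 5.63, Mxi1, a Myc antagonist, at 9.17, 9.07, 8.90, 7.34, 7.39 and 9.07, and Mxd4 at 4.95, 5.36, 4.14, 6.71, 7.14 and 4.69. Mycn, Mycl and Mxi1 were lowest in DAC8 and REF1, and Mxd4 was highest there.

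Over the 6 line means, the genes most like each target were sought among 3100 tested genes with a range of at least 2. The nearest to Egr1 were Pck2, Zfp618 and Abcg3l1 (r = 0.99, 0.99 and 0.98), and those nearest to Fos were Hunk, Ifi27 and Psd3 (r = 0.97, 0.95 and 0.95). Myc was followed by Dlc1, Cdc42ep1 and Scpep1, and Etv5 by Stk38l, Hexa and Hey2, each at r = 1.00. Dusp6 was followed by Unc5b, Ethe1 and Cdc42ep3 (r = 1.00, 1.00 and 0.99). With 6 points, 2 pairs of which share an overall profile, high values are reached by many genes.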

How the data were processed

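RNA was measured on 12 single-colour Affymetrix arrays from 6 lines or cultures, with 2 arrays each. The authors deposited a log2 signal for each of 31099 probe sets, made with RMA in Partek 6.2 as far as the submitters' processing notes name the tools. RMA subtracts background, scales arrays to each other and combines the probes of a set, which compresses differences of dim genes. The sources used here do not say if the 12 arrays went through RMA as one set. Deposited values, from 1.45 to 14.12, were used unchanged. Precision is limited by how few arrays there are.

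Of the probe sets, 20832 had 1 gene symbol in the platform's annotation, 436 had several and 9831 were not listed and are unnamed here. The probe set with the highest mean stood for a gene, and a gene was tested if its mean in at least 1 cell type was 5 or more, which kept 10510 of 14218. The comparison of cell types used limma 3.58.1 (R 4.3.3) with line as a random block, and the 15 pairs of lines in a fit with line as factor. A call needed a Benjamini-Hochberg adjusted p under 0.05 over all genes and a log2 difference of at least 1. The fits were tested on simulated data, where the fit with the line block made more false calls than its adjusted p allows, far more than line means did, and the line-factor fit recovered the larger changes. The 9 genes, the other gene lists and the marker lists were chosen with earlier results of these data known.

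All 9 targets are named. From each other list of 6, the up to 4 genes with the largest range of line means and a highest line mean of at least 5 are named, with those called, and 3 most similar genes for 5 targets. Jun, Spry2, Dusp5, Spry1 and the genes called between lines were singled out after their values were seen. Other settings tried were the fit with no line block, means of each line, replicate number as a block, fits on 2 cell types alone, 2 other filters, quantile normalization, equal medians, an intensity trend, other uses of probe sets, no minimum difference, and each array or line left out. Replicate numbers did not pair the arrays: differences between the 2 arrays of a line correlated at -0.08 to 0.24 between lines, and 3 of 15 correlations were over 0.1. Promoter sequences are from RefSeq (GRCr8), and those of Fos, Ier3, Myc and Etv4 are not used here.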

Additional observations from a re-analysis of the deposited data

Results flagged for a closer look

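Lines under the same label differed in their ERK targets, each by the limma test between lines at an adjusted p under 0.05 and at least 2-fold. Between the iPS lines, A1 minus A2 was 2.06 for Egr1 and 1.90 for Fos. Between the ES lines, DAC2 minus DAC8 was -6.62 for Egr1, -4.71 for Fos, -3.35 for Ier3, -2.86 for Myc, -2.35 for Dusp6 and -2.36 for Fosl1, against 2.18 for Etv4 and 2.79 for Etv5. Between the fibroblast cultures, REF1 minus REF2 was 5.49 for Egr1, 1.19 for Fos, 1.07 for Junb, 2.85 for Ier3, 2.20 for Dusp6 and 1.67 for Fosl1, against -1.77 for Etv4 and -2.92 for Etv5. Over all genes 0.209% were called between A1 and A2, 39.6% between DAC2 and DAC8, and 39.5% between REF1 and REF2. The libraries labelled DAC8 and REF2 went against the markers of their labels, and the differences between the ES lines and between the fibroblast cultures rest on them.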

How the results depend on the processing

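The number of called targets depended on how the lines were treated. For iPS against ES lines it was 4 with all arrays, 0 with line means and 7 without DAC8 and REF2. For iPS lines against fibroblast cultures it was 3, with 0 for line means, 5 without a line block and 8 without DAC8 and REF2. For ES lines against fibroblast cultures it was 0, and 8 when DAC8 and REF2 were left out. Leaving out an array or a line gave 0 to 5 called targets for iPS against ES lines (0 without A1 or A2) and 0 to 5 for iPS lines against fibroblast cultures. Over pairs of lines the count was 96, between 88 and 116 under the other settings and 96 to 97 with 1 array left out.

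Over all genes, 509 were called for iPS against ES lines, 259 with line means, 1504 without a line block, 855 without a filter, 60 to 745 with 1 line left out and 3139 without DAC8 and REF2. For iPS lines against fibroblast cultures there were 561, and 292, 1562, 918, 75 to 854 and 3425 under these settings. Between A1 and A2, adjusted p alone called 4 targets and 204 genes, between DAC2 and REF2 6 and 4990, and between DAC8 and REF1 4 and 2136.

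With a replicate block, 3 targets were called in each iPS comparison and 96 between lines, and the adjusted p of Dusp6 in iPS against ES lines was 0.0567 (limma). Dusp6 lost its call there in 15 of 31 alternatives and gained it against fibroblast cultures in 12 of 31. Myc, Etv4 and Etv5 lost theirs against ES lines in 3 of 31 alternatives each, with line means and without A1 or A2.

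The sign turned in these cases. With DAC8 and REF2 left out, Egr1 in iPS lines against fibroblast cultures was -1.68, and in ES lines against fibroblast cultures Junb was -0.90, Dusp6 -2.01 and Fosl1 -1.43. With 1 line left out, Egr1 ranged from -1.56 to 5.06 in iPS against ES lines and from -1.68 to 3.81 in iPS lines against fibroblast cultures. In ES lines against fibroblast cultures the ranges were -3.99 to 2.62 for Egr1, -1.73 to 1.62 for Ier3, -2.36 to 0.50 for Myc, -0.56 to 1.62 for Etv4, -0.98 to 1.94 for Etv5, -0.43 to 0.64 for Junb, -0.91 to 1.45 for Dusp6 and -0.59 to 1.77 for Fosl1. With 1 array left out, Ier3 ranged there from -0.08 to 0.0014, and Etv5 between A1 and A2 from -0.17 to 0.11. The cause was not tested. Quantile normalization moved no array value of a target by more than 0.10. Signals under 5 limit the low ends, since RMA compresses them.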

Other observations

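Fosb, a relative of Fos whose mean did not reach 5 in any cell type and which was therefore not tested, gave 5.89 and 6.14 in A1, 3.62 and 3.97 in A2, 3.18 and 3.15 in DAC2, 3.94 and 3.56 in DAC8, 4.22 and 4.36 in REF1, and 4.01 and 4.27 in REF2. It was read after its values were seen. The A1 arrays were the only ones above 5.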
